A study of Mus musculus with 10 samples.

Results

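Cyclic nucleotide phosphodiesterases hydrolyse the second messengers cAMP and cGMP, and 10 genes of this family were followed across the nuclei of the mouse hippocampus: Pde1a, Pde1c, Pde2a, Pde3a, Pde4b, Pde4d, Pde7b, Pde8a, Pde8b and Pde10a. They were picked by gene symbol from the 24837 genes of the deposited count matrix, and all 10 were present in it. Hippocampi were taken from unstimulated C57B/6J animals, wild type and 4 to 7 months old, and profiled by single-nucleus RNA sequencing. All 10 samples belong to that 1 group, so every comparison here is between kinds of nuclei and none is between mice, genotypes or treatments. Nuclei came from frozen tissue, were stained with 7AAD and sorted before 10x droplet capture.

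Adenylyl and guanylyl cyclases make cAMP and cGMP, and phosphodiesterases are the enzymes that break them down. Which member a cell uses decides which signals turn breakdown on or off. The PDE1 enzymes are switched on by calcium and calmodulin and take both nucleotides, PDE2 is stimulated by cGMP and PDE3 is inhibited by it. PDE4, PDE7 and PDE8 prefer cAMP, PDE4 being the target of rolipram, while PDE10A takes both nucleotides and is known best from the medium spiny neurons of the striatum. In the hippocampus, cAMP acts through protein kinase A, Epac proteins and ion channels and is known for its part in lasting synaptic plasticity.

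Upstream sequences are shown for Pde8a and Pde4b because, among the members, these genes stood highest in their top class relative to their median class, as described further on. A RefSeq table of promoters (GRCm38.p6) held 26 starts for 9 of the 10 genes, of which the 250 bases before each start were read. Capitals mark TGACG, the core of the cAMP response element, or ACAAAG, the core bound by Sox factors, searched on both strands, so that CTTTGT is the second motif on the other strand. Positions below are on GRCm38.p6, and all 3 windows lie on the + strand and outside the annotated exons of their gene.
Pde8a, chr7:81213015-81213264: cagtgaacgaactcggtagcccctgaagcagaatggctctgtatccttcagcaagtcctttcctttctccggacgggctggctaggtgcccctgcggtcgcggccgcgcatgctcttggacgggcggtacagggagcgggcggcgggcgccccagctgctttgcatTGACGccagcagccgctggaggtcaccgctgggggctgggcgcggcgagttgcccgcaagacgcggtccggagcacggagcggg
Pde4b start 2, chr4:102569810-102570059: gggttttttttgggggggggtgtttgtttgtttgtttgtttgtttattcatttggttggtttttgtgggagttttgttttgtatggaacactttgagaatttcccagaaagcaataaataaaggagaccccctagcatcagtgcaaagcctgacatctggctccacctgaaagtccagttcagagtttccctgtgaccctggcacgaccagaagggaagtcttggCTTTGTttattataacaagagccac
Pde4b start 3, chr4:102587308-102587557: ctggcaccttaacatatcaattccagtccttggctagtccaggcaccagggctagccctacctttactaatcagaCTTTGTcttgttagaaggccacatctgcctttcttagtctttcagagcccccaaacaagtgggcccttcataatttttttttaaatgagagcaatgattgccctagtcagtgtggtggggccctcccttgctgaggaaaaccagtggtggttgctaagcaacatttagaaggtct
The Pde8a window is rich in G and C (68.8%) and its TGACG begins 84 bases before the start. The 2 Pde4b windows shown hold 43.2% and 46.8% G and C, and their Sox cores begin 25 and 175 bases before the start. Pde4b has 4 starts, and these 2 are those with a Sox core. Start 1 has a TGACG that begins 34 bases before it and no Sox core, and start 4 has neither motif. TGACG was in 3 of the 26 windows (11.5%), against 17.8% of all 32851 mouse promoters of the same length in the table, and ACAAAG was in 5 (19.2%), against 16.5%. The full element TGACGTCA was in 0 of the 26 windows and in 1.55% of all promoters. Counts from transcript 3′ ends do not tell which start was used, and a match of letters is a description of the window alone.

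The matrix held unscaled unique molecular identifier (UMI) counts for 15661 barcodes, and 15560 had at least 500 UMIs. Barcodes carried suffixes 1 to 7 for the 10 samples, and which suffix holds which sample is not labelled, so the matrix is treated as 1 sample and no p-value is given. Suffixes held between 1305838 and 26207554 UMIs, with medians of 1012 to 8176 UMIs per barcode, and 21 barcode strings occurred under more than 1 suffix. After filters and doublet removal 15273 nuclei remained, which fell into 15 classes named by marker genes and 3 clusters left unnamed (731 nuclei, 4.79%). Classes are "X-like" by their markers, and "CA1 nuclei" is used as short for CA1-like nuclei and so on. Levels are UMIs per 1000000 UMIs of the class (CPM). The 9 markers of mature oligodendrocytes summed to 16273 CPM in that class and to 93.7 to 180 CPM in the classes of neurons other than Cajal-Retzius nuclei. Cajal-Retzius nuclei had 1065 CPM of these markers. Beside the hippocampal classes there were Zic inhibitory neurons and neuropeptide-rich neurons, and 673 of the 691 neuropeptide-rich nuclei had suffix 1. None of the 10 genes was among the 2074 features used for clustering. Intervals are exact 95% intervals and cover counting error only, and differences between suffixes are given beside them. A suffix has a value only where it held at least 50 nuclei of a class.

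All 10 genes are protein coding and most are long, with a span of 91.1 kb for Pde2a to 1504 kb for Pde4d. Only 0.799% of the Pde4d span (chr13:108449948-109953461, + strand, GENCODE M21) is exonic. Whether intronic reads were counted is not given in the sources used here, so a level is compared between classes for 1 gene and is not ranked against that of another gene. Where counts of 2 genes are combined, only the shift of their share or ratio between classes is read. The number of UMIs ranged over all barcodes of at least 500 UMIs between 85 for Pde2a and 148309 for Pde4d.

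**Figure D1:**
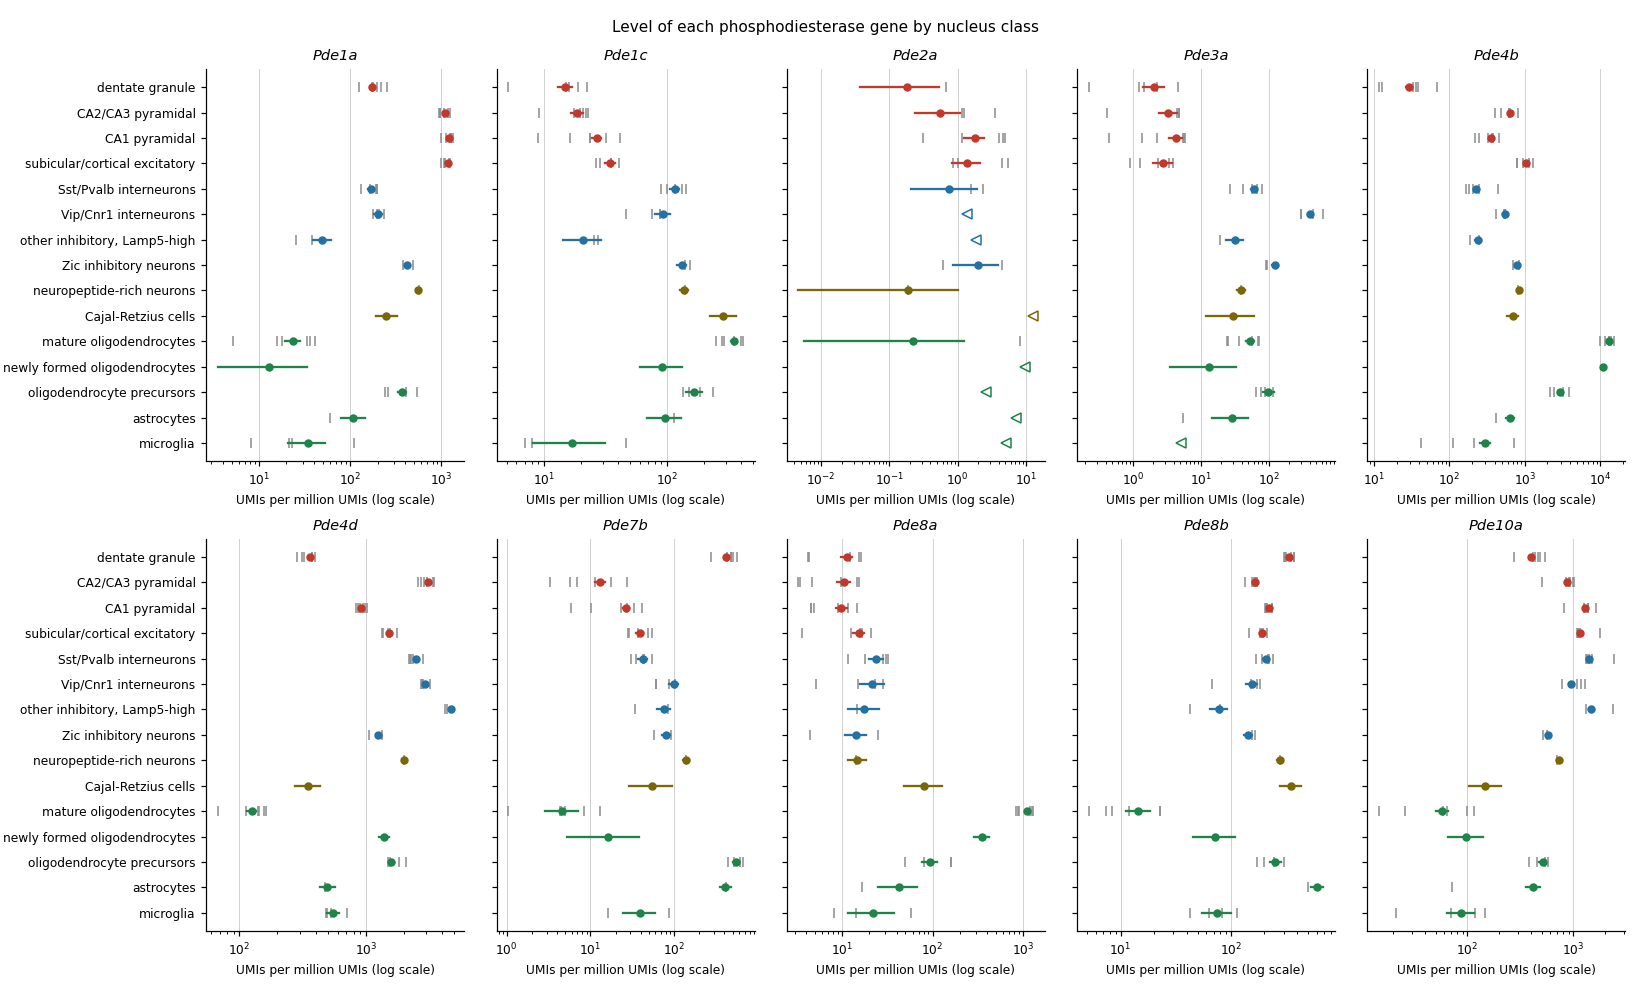
Level of each of the 10 phosphodiesterase genes (UMIs per 1000000 UMIs, log axis) in the 15 classes of nuclei. Dots are the whole class with its exact 95% Poisson interval, grey ticks are single barcode suffixes with at least 50 nuclei (those at 0 UMIs are not drawn), and open triangles mark classes with 0 UMIs, drawn at the 3-UMI floor. Excitatory classes are red, inhibitory blue, neuropeptide-rich and Cajal-Retzius brown and glia green. Pde4b and Pde8a stand highest in oligodendrocytes, and Pde1a in CA1, subicular or cortical and CA2/CA3 nuclei.

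Pde4b (chr4:102087543-102607259, + strand) encodes a cAMP-specific enzyme and, of the members with UMIs in every class, had the widest range. It made up 12926 CPM (12821 to 13031) in mature oligodendrocytes, the myelinating glia, and 10864 CPM (10498 to 11239) in newly formed oligodendrocytes. Oligodendrocyte precursors had 2908 CPM (2811 to 3007). Dentate granule nuclei, at the other end, had 29.0 CPM (26.4 to 31.7), so the highest class stood 446-fold above the lowest. Over the 6 suffixes with enough mature oligodendrocytes the lowest value was 9958, the median 13158 and the highest 15044 CPM. In the 4 suffixes with enough precursors the values were 2176, 2427, 3184 and 3882 CPM. Every suffix of mature oligodendrocytes was above every suffix of precursors, and every suffix of precursors was above every suffix of every neuronal class.

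Among neurons, Pde4b was highest in the subicular or cortical excitatory nuclei, with 1028 CPM (1012 to 1045). CA2/CA3 pyramidal nuclei had 638 CPM (626 to 651) and CA1 pyramidal nuclei 356 CPM (348 to 364). In dentate granule nuclei the suffix values ran over 11.7, 34.5 and 68.6 CPM (lowest, median, highest), whereas CA1 ran over 218, 344 and 449 CPM. The granule suffixes were all below those of CA1 and below those of every other class of neurons with suffix values. Of the interneurons, Vip/Cnr1 nuclei had 539 CPM (509 to 571) and Sst/Pvalb nuclei 225 CPM (212 to 238). Microglia had 296 CPM (254 to 344), but their suffixes disagreed at 42.4, 211, 113 and 728 CPM. The 9 mature oligodendrocyte markers summed to 290, 302, 323 and 954 CPM in the same 4 suffixes of microglia, and their part in the microglial Pde4b was not tested.

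After each nucleus was thinned to 1000 UMIs, 99.9% of mature oligodendrocytes had at least 1 Pde4b UMI, 95.2% of newly formed ones and 83.8% of precursors. The share was 49.4% in subicular or cortical nuclei, 10.4% in microglia and 1.998% in dentate granule nuclei. As a measure of free RNA, the excitatory gene Slc17a7 was found in 2.75% of thinned mature oligodendrocytes and 0.676% of thinned precursors, against 20.1% of granule and 21.5% of CA1 nuclei. Median depth before thinning was 1668.5 UMIs in mature oligodendrocytes, 2308.5 in precursors, 6264 in granule and 3977 in CA1 nuclei, and 539 mature oligodendrocytes were too shallow to thin. Unthinned, 99.8% of mature oligodendrocytes and 13.1% of granule nuclei had a Pde4b UMI.

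Pde8a (chr7:81213596-81334533, + strand), which encodes a cAMP-specific enzyme of high affinity, was also highest in mature oligodendrocytes. Its level was 1114 CPM (1083 to 1145) in mature, 349 CPM (286 to 421) in newly formed oligodendrocytes and 93.8 CPM (77.1 to 113) in precursors. In excitatory classes it was 9.80 CPM (8.50 to 11.2) in CA1, 10.4 in CA2/CA3, 11.3 in dentate granule and 15.2 CPM in subicular or cortical nuclei. Mature oligodendrocytes had 830, 1043 and 1282 CPM (lowest, median and highest of 6 suffixes), and precursors 50.1, 79.5, 162 and 158 CPM in 4 suffixes. The suffix ranges of mature oligodendrocytes and precursors were far apart. In the same 4 suffixes of precursors the 9 mature oligodendrocyte markers summed to 421, 494, 2490 and 2288 CPM. Their part in the precursor values of Pde8a was not tested. Below the precursors the intervals of every class overlapped with the next one in the order. At 1000 UMIs, Pde8a was found in 64.6% (62.4 to 66.7) of mature oligodendrocytes, 36.5% of newly formed ones, 7.77% of precursors and 0.759% of CA1 nuclei.

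The top class of Pde8a was 51.3-fold and that of Pde4b 20.2-fold above the median class, where the median gene of 10647 had a ratio of 2.32. There were 11.6 Pde4b UMIs (11.3 to 11.9) for each Pde8a UMI in mature oligodendrocytes. The same ratio was 2.57 in dentate granule, 13.4 (7.62 to 25.6) in microglia, 31.0 in precursors and 36.3 in CA1 nuclei, so the 2 genes were not in 1 fixed ratio across classes.

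Pde8b (chr13:95024454-95250336, - strand), the paralog of Pde8a, was lowest where Pde8a was highest. Mature oligodendrocytes had 14.4 CPM (11.1 to 18.3), against 606 CPM (534 to 685) in astrocytes and 334 CPM (325 to 343) in dentate granule nuclei. Precursors had 251 CPM (224 to 282), and CA1 and CA2/CA3 nuclei 221.5 and 164.5 CPM. By suffix, mature oligodendrocytes ran from 5.15 to 22.8 CPM and dentate granule nuclei over 300.4, 331 and 374 CPM. The granule suffixes lay above all 6 of CA1 (205, 210 and 234 CPM) and all 6 of CA2/CA3 (133, 163 and 174 CPM). The astrocyte class is small, with 178 nuclei. Of these, 129 were also named astrocytes at a finer clustering and had 544 CPM, while the 49 that fell there into a cluster with vascular markers had 784 CPM.

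Pde7b (chr10:20398004-20725078, - strand), another cAMP-specific enzyme, was highest in oligodendrocyte precursors, dentate granule nuclei and astrocytes. The levels were 546 CPM (505 to 590), 418 CPM (408 to 428) and 408 CPM (350 to 474). The next class, the neuropeptide-rich neurons, had 139 CPM, and CA1, CA2/CA3 and mature oligodendrocyte nuclei had 26.7, 13.1 and 4.64 CPM. Dentate granule nuclei had 275, 479 and 564 CPM (lowest, median and highest of 6 suffixes), whereas CA1 nuclei had 5.81, 25.0 and 41.7 CPM. The precursors had 526, 612, 437 and 663 CPM in 4 suffixes, which overlap with the granule range, so the order of these classes is within the spread of suffixes. No granule suffix came near a CA1 suffix. At 1000 UMIs, 47.3% of precursors, 31.8% of granule nuclei and 1.97% of CA1 nuclei had a Pde7b UMI. The 10 astrocyte markers summed to 11559 CPM in astrocytes and 1156 CPM in granule nuclei, and their part in the granule levels of Pde7b and Pde8b was not tested. These markers include Slc4a4, which was a leading gene of the granule clusters led by Glis3 and C1ql2, so the sum does not measure astrocyte RNA alone.

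Pde4d (chr13:108449948-109953461, + strand), the long paralog of Pde4b, had UMIs in every class and was lowest in mature oligodendrocytes. The highest level was 4722 CPM (4616 to 4830) in the Lamp5-high inhibitory nuclei. CA2/CA3 pyramidal nuclei followed with 3082 CPM (3054 to 3110), Vip/Cnr1 interneurons with 2912 CPM (2841 to 2985) and Sst/Pvalb interneurons with 2495 CPM (2453 to 2538). CA1 nuclei had 916 CPM (903 to 929), dentate granule nuclei 361 CPM (352 to 370) and mature oligodendrocytes 125 CPM (115 to 136). By suffix, CA2/CA3 ran over 2567, 2963 and 3457 CPM, CA1 over 840, 926 and 1025 CPM and dentate granule over 287, 348 and 396 CPM. These 3 ranges did not overlap. The ranges of CA2/CA3 and Vip/Cnr1 nuclei did overlap, and so did those of Vip/Cnr1 and Sst/Pvalb nuclei, while both suffixes with enough Lamp5-high nuclei (4222 and 4401 CPM) lay above all of them. At 1000 UMIs, Pde4d was found in 90.9% of Vip/Cnr1, 84.7% of CA2/CA3, 54.3% of CA1, 27.6% of granule and 9.73% of mature oligodendrocyte nuclei.

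Pde1a (chr2:79834453-80129458, - strand) and Pde1c (chr6:56069804-56569103, - strand) encode the calcium-activated members. Pde1a was highest in CA1 nuclei with 1220 CPM (1205 to 1235), in subicular or cortical nuclei with 1165 CPM (1147 to 1184) and in CA2/CA3 nuclei with 1096 CPM (1079 to 1113). Their intervals were apart but their suffix ranges overlapped. Dentate granule nuclei had 172 CPM (166 to 179) and Sst/Pvalb interneurons 169 CPM (158 to 181), which do not differ beyond counting error. Across suffixes, dentate granule nuclei had 124, 185 and 252 CPM (lowest, median and highest), and CA1 nuclei 976, 1250 and 1321 CPM. The ranges are well apart. Oligodendrocyte precursors, at 368 CPM (334 to 405), were above every interneuron class except the Zic one, and mature oligodendrocytes had 23.4 CPM (19.2 to 28.4).

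Pde1c was low in the excitatory classes, of which all but the dentate granule nuclei had high Pde1a. It reached 349 CPM (332 to 367) in mature oligodendrocytes, with 250, 323 and 413 CPM as lowest, median and highest of 6 suffixes. Cajal-Retzius nuclei, an early-born neuron of the outer layers, had 287 CPM (223 to 364) on 68 UMIs, which overlaps with the oligodendrocyte interval. Precursors had 166 CPM, Sst/Pvalb nuclei 115 and Vip/Cnr1 nuclei 92.3 CPM, while the excitatory classes had 14.9 to 34.5 CPM. The 5 suffixes of Sst/Pvalb nuclei, 133, 88.9, 142, 100.4 and 116 CPM, were all above the highest CA1 suffix of 41.2 CPM. At 1000 UMIs, 25.8% of mature oligodendrocytes and 1.90% of CA1 nuclei had a Pde1c UMI.

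Pde10a (chr17:8525372-8986648, + strand), the dual-specificity enzyme, had the smallest gap between its top and its median class (2.53-fold) of the 9 genes other than Pde2a. Lamp5-high inhibitory nuclei had 1462 CPM (1403 to 1523) and Sst/Pvalb interneurons 1401 CPM (1369 to 1433), whose intervals overlap. CA1 nuclei had 1291 CPM (1276 to 1307), CA2/CA3 nuclei 871 CPM (856 to 886) and dentate granule nuclei 399.9 CPM (390 to 410). Mature oligodendrocytes were lowest with 57.5 CPM (50.7 to 64.9). Suffixes differed for this gene, since CA1 ran over 819, 1310 and 1628 CPM and subicular or cortical nuclei had 1142, 1104, 1085, 1114 and 1771 CPM in suffixes 2 to 6. Suffix 6 was the highest in both Sst/Pvalb nuclei (2390 CPM, others 1327 to 1481) and subicular or cortical nuclei. A gene on the opposite strand within its span, Gm17087, had 22 UMIs. In astrocytes the whole class had 413 CPM and suffix 1, the suffix with most of its nuclei, 71.3 CPM, so the astrocyte level rests on suffixes with few nuclei.

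Pde3a (chr6:141249269-141507448, + strand), the cGMP-inhibited member, was sharply uneven among neurons. Vip/Cnr1 interneurons had 407 CPM (381 to 435), Zic inhibitory nuclei 123 CPM (113 to 134) and Sst/Pvalb interneurons 60.4 CPM (54.0 to 67.4). The 4 excitatory classes had 2.01 to 4.28 CPM. Vip/Cnr1 nuclei had 633, 446, 301 and 299 CPM in the 4 suffixes with enough nuclei, and Sst/Pvalb nuclei 56.6, 80.2, 42.4, 27.0 and 67.0 CPM in 5. All of the Vip/Cnr1 values were above all of the Sst/Pvalb values, and no excitatory suffix exceeded 5.82 CPM. Microglia had 0 UMIs, for which the floor of 3 UMIs in the class is 5.11 CPM, and against that floor the Vip/Cnr1 level was at least 79.7-fold higher.

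Pde2a (chr7:101421691-101512827, + strand), the cGMP-stimulated enzyme, had 85 UMIs in all and was found in 0.527% of barcodes. CA1 nuclei held 37 of them (1.78 CPM), subicular or cortical nuclei 19, and 7 of the 15 classes none. In the GENCODE M21 annotation almost all of its span lies within another protein-coding gene on the same strand, Gm45837, which had 42 UMIs. Counters that drop reads shared by overlapping genes lose reads of both, so its count is uncertain and nothing about Pde2a level is read from it.

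**Figure D2:**
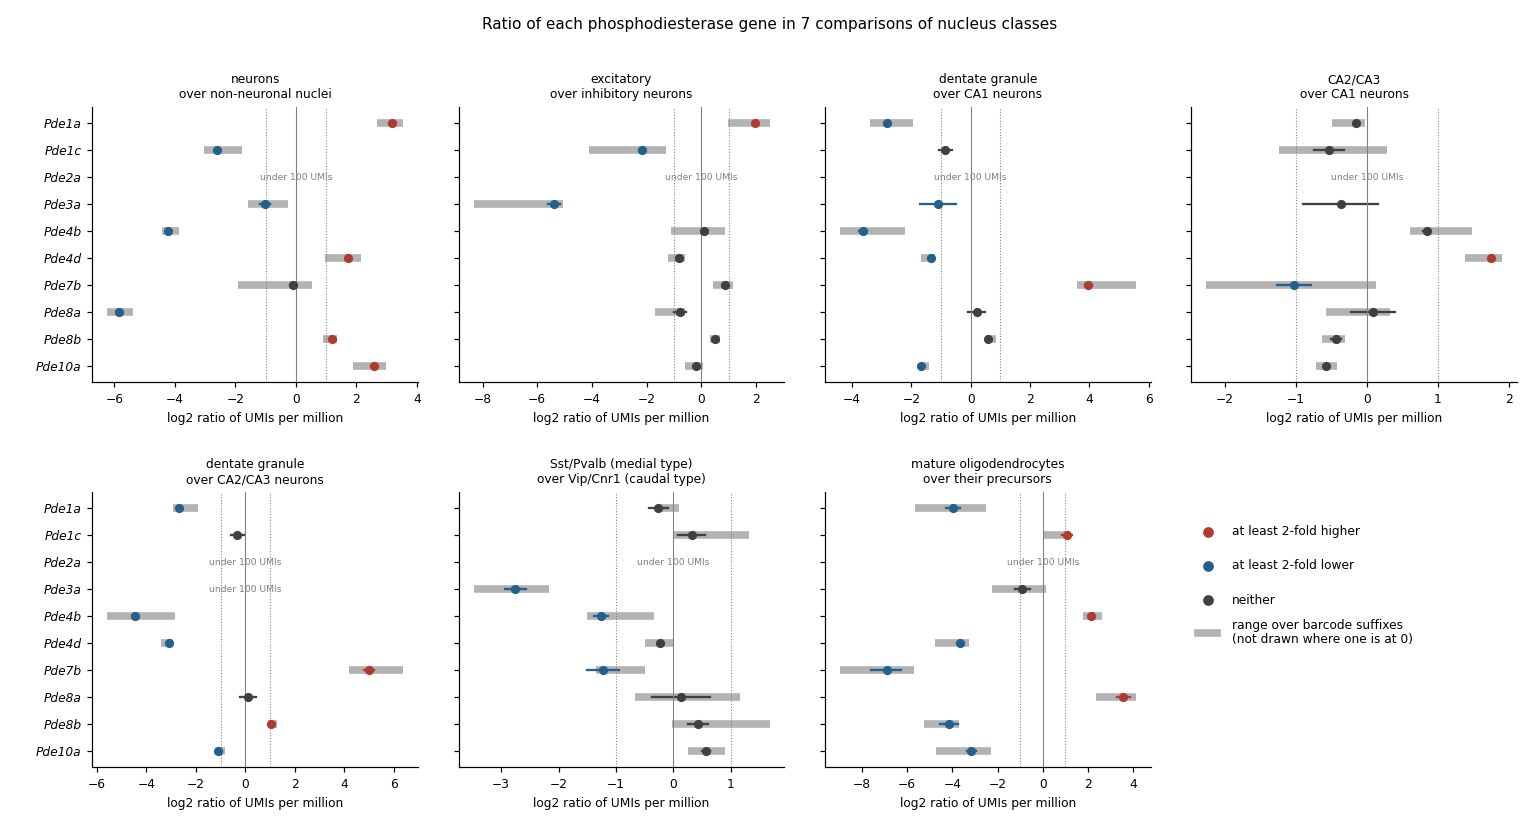
Log2 ratio of level for each gene in 7 comparisons of nuclei, the first-named class over the second. Dots are ratios with their exact 95% interval, grey bars the range over single suffixes (left out where one is at 0 UMIs), and dotted lines mark 2-fold. Genes at least 2-fold higher are red, at least 2-fold lower blue and the others dark, and genes with under 100 UMIs in both classes together are marked so. Pde4b is 18.8-fold lower in neurons than in non-neuronal nuclei, and Pde7b 15.7-fold higher in dentate granule than in CA1 nuclei.

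A gene was counted as higher or lower in a comparison if its ratio was at least 2 or at most 0.5 with at least 100 UMIs over both sides, which is a rule of size and no test. Pde2a had too few UMIs for it everywhere, so 9 genes could be counted, and 8 in dentate granule over CA2/CA3. The 1st comparison set 10956 neurons against 3475 non-neuronal nuclei, with the 111 Cajal-Retzius nuclei and the unnamed clusters on neither side. Of the 9 genes, 4 were higher in neurons, where 19.0% of 13738 genes were, and 4 were lower, where 19.9% of genes were. Pde1a had 790 CPM in neurons and 86.7 CPM in non-neuronal nuclei, a ratio of 9.11 (8.41 to 9.88). Pde10a followed with 952 and 159 CPM (5.97-fold), Pde4d with 1596 and 483 CPM (3.30-fold) and Pde8b with 223 and 97.4 CPM (2.29-fold). On the other side, Pde8a was 58.2-fold lower in neurons (54.5 to 62.1), with 13.0 CPM in neurons and 753 CPM in non-neuronal nuclei. Pde4b was 18.8-fold lower (18.6 to 19.1), with 497 and 9358 CPM, and Pde1c 6.04-fold lower, with 43.7 and 264 CPM. Pde3a was just past the limit at 25.7 CPM in neurons and 52.6 CPM in non-neuronal nuclei, and the ratio was 0.489 (0.438 to 0.548). All these directions were the same in the 5 suffixes that had enough nuclei of both sides, but Pde3a was no longer past 2-fold without suffix 3, 4, 5 or 6 (1.91-fold to 1.997-fold lower). Pde7b, with 116 and 123 CPM, had a ratio of 0.942 (0.878 to 1.01) and suffix ratios from 0.262 to 1.46.

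Neurons held 3.82 times more UMIs per nucleus, so per-million ratios and UMIs per nucleus differ. Counted per nucleus, Pde4b had fewer UMIs in neurons, 3.83 in neurons and 18.9 in non-neuronal nuclei. By the same count Pde1c was 1.58-fold lower in neurons and Pde3a turned to 1.87-fold higher, so that 2 genes in place of 4 were lower. Mature oligodendrocytes are most of the non-neuronal nuclei, 2502 of 3475, and the comparison mainly sets neurons against them.

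Between 8533 excitatory and 1732 inhibitory neurons, 1 gene was higher in excitatory nuclei (7.03% of all genes were) and 2 were lower (7.93%). Pde1a had 920 CPM in excitatory and 236 CPM in inhibitory neurons, a ratio of 3.89 (3.75 to 4.03), with suffix ratios from 1.96 to 5.63. Pde3a had 3.18 CPM in excitatory and 133 CPM in inhibitory neurons and was 41.98-fold lower (36.3 to 48.7). Pde1c, at 23.7 CPM in excitatory and 105 CPM in inhibitory neurons, was 4.45-fold lower (4.13 to 4.78). Pde4d was lower in excitatory neurons in all 6 suffixes but short of 2-fold, with 1392 CPM in excitatory and 2452 CPM in inhibitory neurons (1.76-fold lower). Pde4b had 479 CPM in excitatory and 450 CPM in inhibitory neurons, and its direction differed between suffixes (ratios 0.468 to 1.83). The inhibitory side includes the 412 Zic nuclei, of which 174 had suffix 1 and 175 suffix 2. For Pde4b, Zic nuclei had 784 CPM, against 539 CPM in Vip/Cnr1, 239 in Lamp5-high and 225 in Sst/Pvalb nuclei. For Pde1a, Zic nuclei had 418 CPM, against 202 in Vip/Cnr1 and 169 in Sst/Pvalb nuclei, with Lamp5-high nuclei lowest. Zic nuclei thus raised the pooled inhibitory levels of both genes.

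Dentate granule nuclei were set against CA1 pyramidal nuclei, the entry and exit stages of the hippocampal circuit. Of 9 genes, 1 was higher in granule nuclei (6.57% of all genes) and 5 were lower (8.25%). Pde7b, with the levels given above, was 15.7-fold higher (14.4 to 17.1), and the 6 suffixes gave 12.01 to 47.4. Pde4b was 12.3-fold (11.2 to 13.5), Pde1a 7.09-fold (6.82 to 7.37), Pde10a 3.23-fold and Pde4d 2.54-fold lower in granule nuclei. Pde3a, with 33 UMIs in granule and 89 UMIs in CA1 nuclei, had a ratio of 0.471 (0.306 to 0.709), which reaches across the 2-fold limit, and was no longer past it without suffix 1, 2 or 4 (1.77-fold to 1.86-fold lower). With the unnamed clusters, 2 of which join the granule class and carry microglial or oligodendrocyte genes, Pde4b turned to 2.96-fold and Pde3a to 2.12-fold higher in granule nuclei, and Pde4d was 1.99-fold lower. Pde8b was 1.51-fold higher in granule nuclei (1.45 to 1.57), and Pde8a did not differ beyond counting error (1.15, 0.938 to 1.41).

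CA2/CA3 nuclei differed from CA1 nuclei in fewer members, with 1 of 9 higher (3.86% of all genes) and 1 of 9 lower (3.99%). Pde4d was 3.37-fold higher in CA2/CA3 nuclei (3.31 to 3.42), and suffix ratios were 2.61 to 3.75. Pde7b was lower, with a ratio of 0.490 (0.414 to 0.579), in 5 of 6 suffixes. That call was lost without suffix 1 (1.95-fold lower), 3 (1.74-fold) or 6 (1.99-fold), after thinning (1.65-fold), at resolution 2 (1.48-fold), as UMIs per nucleus (1.26-fold) and for the median over suffixes (1.83-fold). In CA1, 337 of the 555 Pde7b UMIs lay in a cluster led by Dcn (80.7 CPM). The other CA1 clusters had 6.30 to 19.4 CPM, and the CA2/CA3 clusters 5.64 and 22.3 CPM. Pde4b was higher in CA2/CA3 nuclei in all 6 suffixes, by 1.79-fold (1.74 to 1.85), and Pde1a was close to equal (0.898). At a finer clustering, 137 nuclei with mossy cell markers had 1070 CPM of Pde4b, and their part in the Pde4b ratio was not tested. Set against CA2/CA3 nuclei, granule nuclei had 2 of 8 genes higher (7.65% of all genes) and 4 lower (8.41%). Pde7b was 32.0-fold (27.7 to 37.1) and Pde8b 2.03-fold (1.94 to 2.13) higher in granule nuclei, and Pde4b was 22.0-fold, Pde4d 8.54-fold, Pde1a 6.37-fold and Pde10a 2.18-fold lower. Pde8b was 1.96-fold higher without suffix 3 and 1.17-fold higher as UMIs per nucleus. Pde10a was 1.95-fold lower for the median over suffixes. With the unnamed clusters joined, Pde4b turned to 1.65-fold higher in granule nuclei and Pde8b was 1.83-fold higher. Granule nuclei are 1 side of both comparisons that show high Pde7b, so these are not independent of each other.

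The interneurons were compared by their presumed origin, with Sst/Pvalb nuclei, of the medial ganglionic eminence type, over Vip/Cnr1 nuclei, of the caudal type. None of 9 genes was at least 2-fold higher in Sst/Pvalb nuclei (4.85% of all genes were) and 3 were lower (3.31%). Pde3a was 6.74-fold lower (5.92 to 7.67), Pde4b had a ratio of 0.417 (0.384 to 0.452) and Pde7b of 0.428 (0.354 to 0.519). Pde10a was 1.49-fold higher in Sst/Pvalb nuclei. The other 5 genes had ratios from 0.837 for Pde1a to 1.35 for Pde8b.

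Mature oligodendrocytes were set against their precursors, the proliferating cells from which they derive. Of 9 genes, 3 were higher in mature nuclei (16.9% of all genes) and 5 were lower (15.1%). Pde8a was 11.9-fold (9.83 to 14.5), Pde4b 4.45-fold (4.29 to 4.60) and Pde1c 2.10-fold (1.81 to 2.45) higher in mature oligodendrocytes. Pde7b was 118-fold (76.3 to 191), Pde8b 17.5-fold, Pde1a 15.7-fold, Pde4d 12.7-fold and Pde10a 8.92-fold lower. These 8 directions held in each of the 4 suffixes with enough nuclei, while the Pde1c suffix ratios were 1.06 to 2.17 and its ratio was 1.94 without suffix 3. The Pde1c ratio was also short of 2-fold after thinning (1.88) and for the median over suffixes (1.99). It was 1.96 without the 50 most abundant genes in the scaling and 1.13 as UMIs per nucleus. Precursors in suffixes 1, 2, 5 and 7 carried 421, 494, 2490 and 2288 CPM of the 9 mature oligodendrocyte markers and 2176, 2427, 3184 and 3882 CPM of Pde4b. The part of those markers in the Pde4b and Pde8a levels of precursors, and so in both ratios, was not tested. Pde4b UMIs per nucleus were 23.4 in mature oligodendrocytes and 9.80 in precursors.

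**Figure D3:**
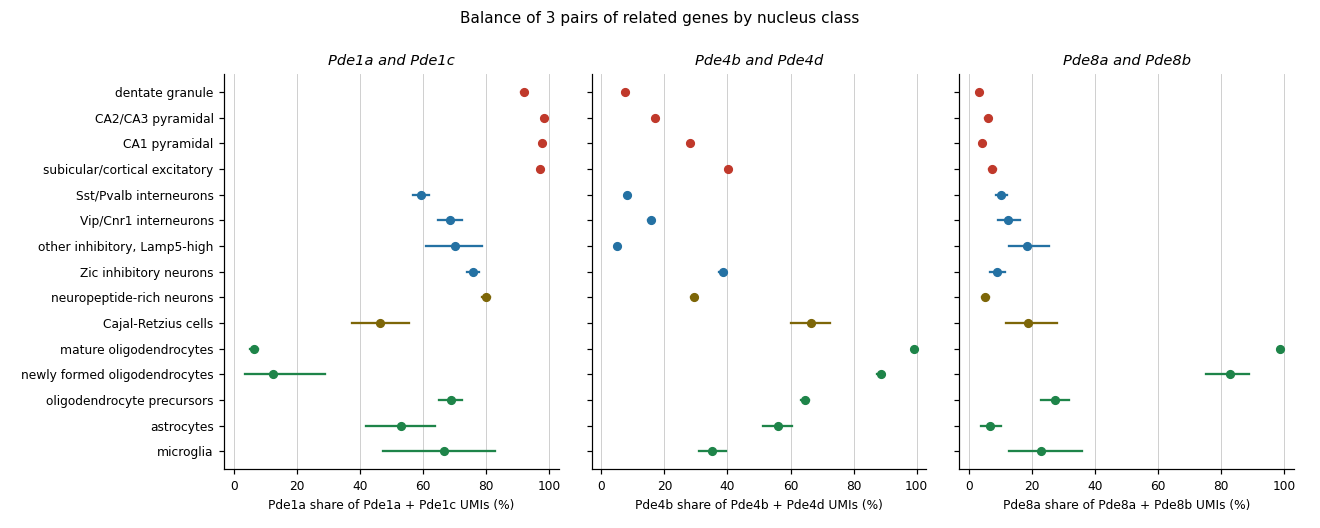
Share of UMIs held by the 1st gene of each paralog pair, in percent, by class of nuclei, with exact 95% binomial intervals. Pde1a of Pde1a plus Pde1c is 97.8% in CA1 and 6.29% in mature oligodendrocytes, Pde4b of Pde4b plus Pde4d is 99.0% in mature oligodendrocytes and 4.82% in Lamp5-high nuclei, and Pde8a of Pde8a plus Pde8b is 98.7% in mature oligodendrocytes and 3.27% in dentate granule nuclei.

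Within each paralog pair the balance moved between classes, which does not depend on gene length. Pde4b made up 99.0% (99.0 to 99.1) of Pde4b plus Pde4d UMIs in mature oligodendrocytes, 88.6% in newly formed ones and 64.7% (63.3 to 65.9) in precursors. In dentate granule nuclei it was 7.43% (6.80 to 8.10) and in Lamp5-high nuclei 4.82% (4.36 to 5.32). Pde8a was 98.7% (98.4 to 99.0) of Pde8a plus Pde8b in mature oligodendrocytes, 82.9% (75.3 to 89.0) in newly formed ones and 27.2% (22.9 to 31.8) in precursors. The share was 3.27% in granule, 6.55% in astrocyte and 12.3% in Vip/Cnr1 nuclei. Intervals overlapped with that of precursors in Lamp5-high (18.4%, 12.6 to 25.5), Cajal-Retzius (18.8%, 11.7 to 27.8) and microglial nuclei (22.8%, 12.7 to 35.8). These 3 shares rest on 28, 19 and 13 Pde8a UMIs. The mature oligodendrocyte markers summed to 130, 1065 and 517 CPM in these classes and to 1172 CPM in precursors. Their part in the Pde8a shares was not tested. Pde1a was 6.29% (5.18 to 7.56) of Pde1a plus Pde1c in mature oligodendrocytes, against 68.9% (65.1 to 72.5) in precursors. The excitatory classes had 92.0% to 98.3% and Sst/Pvalb interneurons 59.5% (57.0 to 62.0). All 3 pairs thus had a different balance in mature oligodendrocytes from that in precursors, and in newly formed ones the Pde4 and Pde8 pairs lay between. The newly formed class has 64 nuclei, too few for any suffix value, and held 107 Pde8a and 22 Pde8b UMIs. The 9 mature oligodendrocyte markers summed to 19116 CPM in it, above the 16273 CPM of the mature class.

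**Figure D4:**
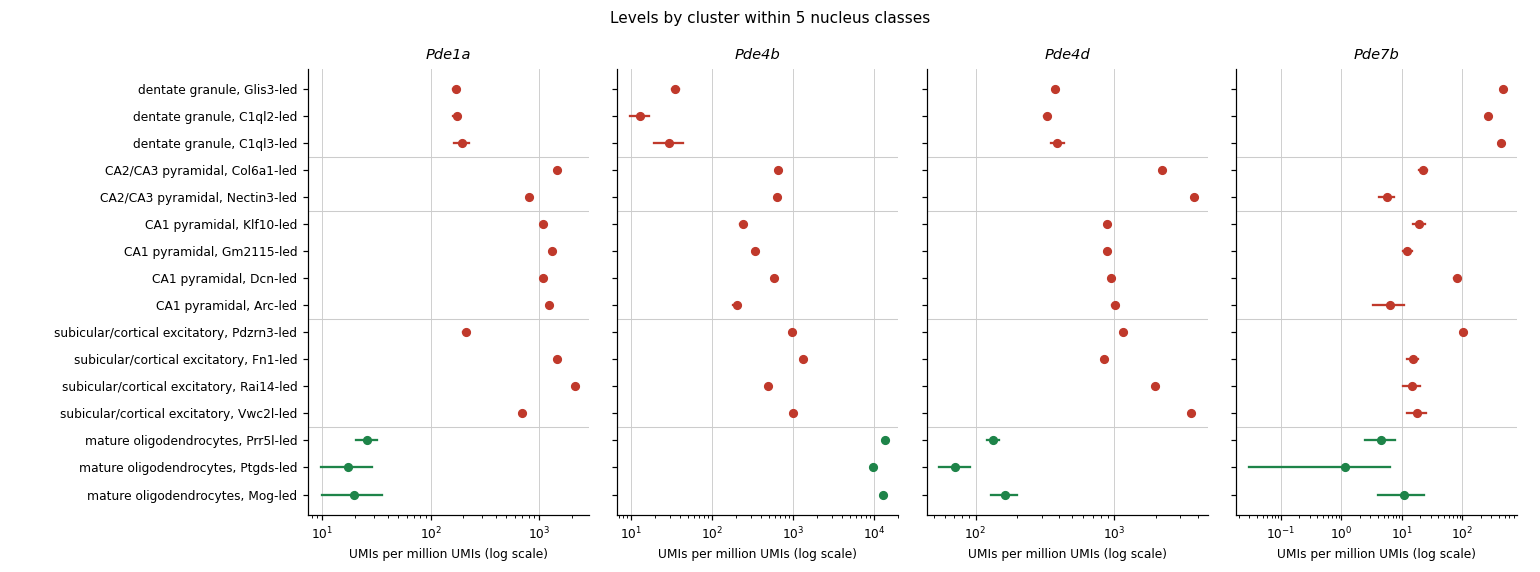
Level of Pde1a, Pde4b, Pde4d and Pde7b (UMIs per 1000000 UMIs, log axis) in single clusters of dentate granule, CA2/CA3, CA1, subicular or cortical and mature oligodendrocyte nuclei, with exact 95% intervals. Clusters carry the name of their leading gene. Pde1a runs from 212 to 2150 CPM among the 4 subicular or cortical clusters, and Pde4b from 9641 to 13830 CPM among the oligodendrocyte clusters.

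Levels also varied within classes. The 4 subicular or cortical clusters were spread over suffixes. Pde1a was at 2150 CPM in the Rai14-led cluster, 1467 in the Fn1-led, 701 in the Vwc2l-led and 212 CPM in the Pdzrn3-led cluster, so the highest was 10.2-fold (9.42 to 11.0) above the lowest. Pde4d had another order, with 3574 CPM in the Vwc2l-led, 1983 in the Rai14-led, 1160 in the Pdzrn3-led and 844 CPM in the Fn1-led cluster. Pde4b was highest in the Fn1-led cluster (1326 CPM) and lowest in the Rai14-led one (487 CPM). Pde7b was 104 CPM in the Pdzrn3-led cluster and 14.7 to 17.7 CPM in the others. No cluster was highest for all of these genes.

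The CA2/CA3 class had a Col6a1-led and a Nectin3-led cluster. Pde1a was 1454 CPM in the Col6a1-led and 807 CPM in the Nectin3-led cluster, whereas Pde4d was 2227 CPM in the Col6a1-led and 3772 CPM in the Nectin3-led one. At a finer clustering, a Glod5-led cluster had 4589 CPM of Pde4d and 880 CPM of Pde4b, and the Nectin3-led cluster 3511 and 468 CPM. A cluster of 137 nuclei with mossy cell markers had 1070 CPM of Pde4b, 2.29 times the Nectin3-led level. Among Sst/Pvalb interneurons, the Lypd6b-led cluster of 384 nuclei had 325 CPM of Pde1a, and the Tll1-led cluster of 339 nuclei 28.2 CPM. The ratio was 11.5 (9.16 to 14.7). Pde1c was 188 CPM in the Lypd6b-led and 48.5 CPM in the Tll1-led cluster. Both calcium-activated members were thus higher in the Lypd6b-led nuclei, while Pde4d was lower there (ratio 0.717).

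Other classes also varied between clusters. In CA1, the Dcn-led cluster of 489 nuclei, with none from suffix 1, had 80.7 CPM of Pde7b (72.3 to 89.8) and 586 CPM of Pde4b, and the Gm2115-led cluster 12.2 and 336 CPM. Several other clusters belonged largely to 1 or 2 suffixes, so cluster and suffix cannot be told apart in them. The Klf10-led CA1 cluster came mostly from suffixes 5 and 6 (514 and 778 of 1330 nuclei) and had 19.4 CPM of Pde7b and 1551 CPM of Pde10a. In the dentate gyrus, the C1ql2-led cluster, of which 646 of 658 nuclei had suffix 1, had 269 CPM of Pde7b and 12.9 CPM of Pde4b. The Glis3-led cluster had 474 and 35.2 CPM. Mature oligodendrocytes of the Ptgds-led cluster (600 of 609 from suffix 1) had 9641 CPM of Pde4b and 834 CPM of Pde8a, and those of the Prr5l-led cluster 13830 and 1227 CPM. Every granule cluster had more Pde7b and less Pde4b than every CA1 cluster.

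Across the 15 classes, the likeness of profiles was measured as Pearson's r of log2(CPM + 10), a description over classes that share libraries and differ in depth. The genes most like Pde8a were Aspa (0.989) and Mog (0.987), which are made by oligodendrocytes, and Mog was also a marker used in naming. For Pde1c they were Samd4 (0.893) and Rcan2 (0.890), and for Pde1a Tent4a (0.930) and Lingo1 (0.929). Pde4b had an r of 0.899 with Enpp2. Pde10a was most like Gnb5 (0.973) and Zfp385b (0.952), Pde8b like Clasp1 (0.914) and Faap20 (0.892), Pde4d like Aldh18a1 (0.898) and Supv3l1 (0.850), Pde7b like Fam222b (0.883) and Ankrd6 (0.878), and Pde3a like Npas3 (0.814) and Fkbp4 (0.798). Aspa, Mog, Enpp2, Samd4, Rcan2 and Npas3 were among the features used for clustering. Among the members, Pde4b and Pde8a were most alike (0.820), followed by Pde4d and Pde10a (0.743) and by Pde7b and Pde8b (0.687). Pde8a and Pde10a were most unlike (-0.745).

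Thinned nuclei had UMIs of several members at once. At 1000 UMIs a precursor nucleus had on average 3.27 of the 10 genes, and 71.6% had at least 3. Mature oligodendrocytes averaged 2.14, CA2/CA3 nuclei 2.51 and dentate granule nuclei 1.36. Microglia averaged 0.610 and 53.9% of them had none. The summed level of the 10 genes was 14667 CPM in mature oligodendrocytes, 1742 CPM in dentate granule and 1120 CPM in microglial nuclei. Pde4b alone held 12926, 29.0 and 296 CPM of these sums. The sum in mature oligodendrocytes thus rests mostly on Pde4b and is not read as a level of the family.

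**Figure D5:**
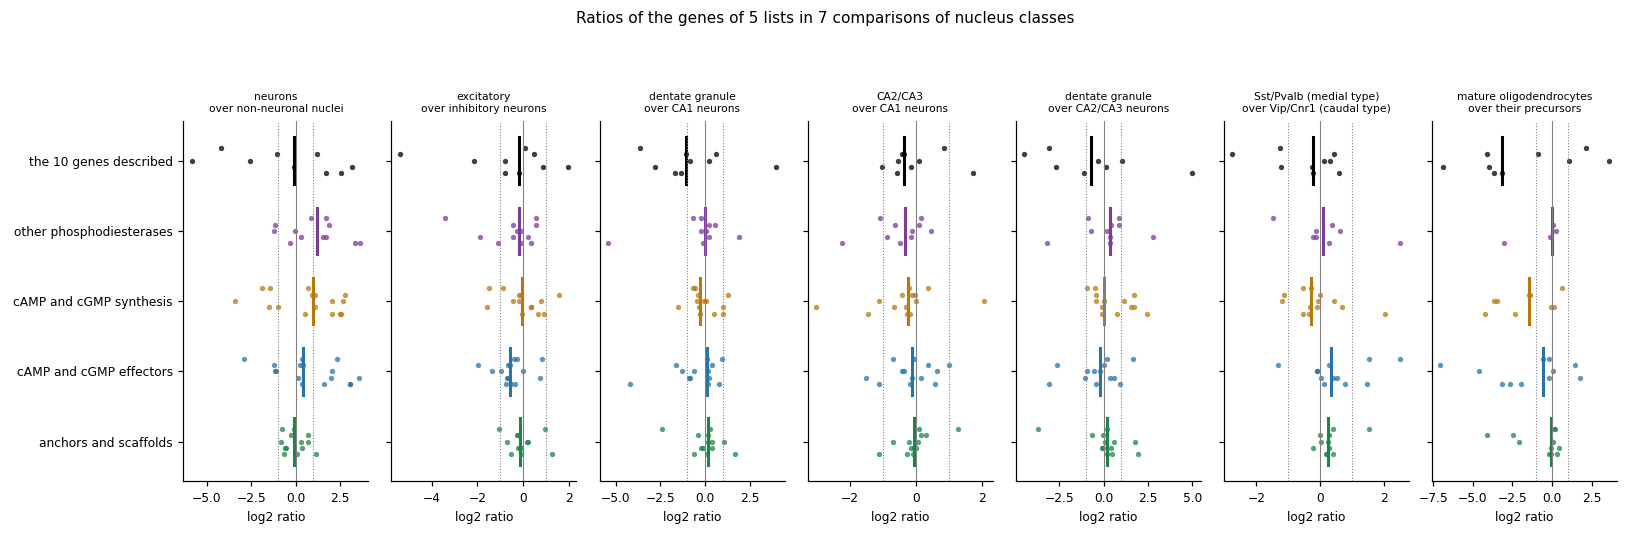
Log2 ratio of level in 7 comparisons for the genes of 5 lists: the 10 members, other phosphodiesterases, enzymes of cAMP and cGMP synthesis, effectors and anchors. Each dot is a gene with 100 UMIs or more in both classes together and with UMIs in each of them, and each bar is the median of the genes drawn. In mature oligodendrocytes over precursors the median is -3.16 for the members and -1.43 for synthesis.

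The rest of the pathway was counted in 4 lists, which were drawn up with earlier results of these data known. They are 14 other phosphodiesterases, 18 synthesis genes, 21 effectors and 13 anchors or scaffolds. In neurons over non-neuronal nuclei, where 19.0% of all genes were higher and 19.9% lower, 6 of 12 countable other phosphodiesterases were higher and 2 lower, 8 of 16 synthesis genes higher and 4 lower, 7 of 16 effectors higher and 4 lower, and 1 of 13 anchors higher. The median log2 ratios were 1.21, 0.99, 0.40 and -0.08, against -0.09 for the members and -0.19 for all genes. Pde11a, a dual-specificity enzyme, had 97.4 CPM in neurons and 7.84 CPM in non-neuronal nuclei (12.4-fold higher). Adcy2, an adenylyl cyclase, had 489 and 75.0 CPM (6.52-fold higher). Lower in neurons were Pde3b, with 81.4 and 186 CPM, Adcy5, with 39.2 and 108 CPM, and the Epac gene Rapgef3, with 6.34 and 47.1 CPM.

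Other genes of the lists differed among neurons. Pde5a, a cGMP-specific enzyme, had 5.61 CPM in excitatory and 59.4 CPM in inhibitory neurons, and Adcy9 394 and 133 CPM. In excitatory over inhibitory neurons (7.03% of all genes higher, 7.93% lower), 0 of 12 other phosphodiesterases were higher and 3 lower, 2 of 15 synthesis genes higher and 2 lower, 0 of 15 effectors higher and 2 lower, and 1 of 13 anchors higher and 1 lower. Between granule and CA1 nuclei, Pde11a had 3.78 CPM in granule and 163 CPM in CA1 nuclei, while Pde1b, the calcium-activated paralog outside the 10, had 63.3 CPM in granule and 16.8 CPM in CA1 nuclei (3.78-fold higher, 3.34 to 4.27). Of 10 other phosphodiesterases 1 was higher and 1 lower there (all genes 6.57% and 8.25%), of 13 synthesis genes 2 and 1, of 13 effectors 0 and 3, and of 13 anchors 2 and 1. CA2/CA3 nuclei had 23.5 CPM of the calcium-stimulated cyclase Adcy8, against 192 CPM in CA1 nuclei, and 335 CPM of Akap13, against 138 CPM. In CA2/CA3 over CA1 (3.86% of all genes higher, 3.99% lower), 0 of 10 other phosphodiesterases were higher and 2 lower, of 14 synthesis genes 1 was higher and 3 lower, of 13 effectors 0 and 2, and of 13 anchors 1 and 1. Granule nuclei had 312 CPM of the cyclase Adcy1 and CA2/CA3 nuclei 57.1 CPM, and 5 of 13 synthesis genes were higher in granule nuclei and 0 lower (all genes 7.65% and 8.41%). In the same comparison 1 of 10 other phosphodiesterases was higher and 1 lower, 1 of 13 effectors higher and 3 lower, and 2 of 13 anchors higher and 1 lower. In Sst/Pvalb over Vip/Cnr1 interneurons (4.85% of all genes higher, 3.31% lower), 3 of 12 effectors were higher and 1 lower, and the cGMP-dependent kinase gene Prkg1 had 819 CPM in Sst/Pvalb and 144 CPM in Vip/Cnr1 nuclei. Of 8 other phosphodiesterases 1 was higher and 1 lower there, of 13 synthesis genes 1 and 2, and of 11 anchors 1 and 0.

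In mature oligodendrocytes over precursors, where 16.9% of all genes were higher and 15.1% lower, 0 of 9 countable synthesis genes were higher and 6 lower, with a median log2 ratio of -1.43, of 11 effectors 2 were higher and 5 lower, and of 11 anchors 0 were higher and 3 lower. Prkg1 had 48.7 CPM in mature oligodendrocytes and 1201 CPM in precursors. The effectors that were higher in mature oligodendrocytes were Hcn2, with 139 CPM in mature and 40.1 CPM in precursor nuclei, and the catalytic subunit gene of protein kinase A, Prkacb, with 216 and 80.1 CPM. Of the other phosphodiesterases only 4 were countable, and Pde3b, with 9.29 CPM in mature oligodendrocytes and 75.9 CPM in precursors, was the 1 that was lower. The median over all genes was 0.19, so the negative medians lie below that of the whole table.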

How the data were processed

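Nuclei of 10 wild-type samples were measured by 10x 3′ single-nucleus RNA sequencing. The deposited matrix gives raw UMI counts for each gene in each barcode, per the file headers. Cell Ranger 4.0.0 and the builds mm10 and GRCm38 are named per the submitters' processing notes. Neither the annotation release nor the use of intronic reads is given in the sources used here.

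Kept barcodes (15553 of 15661) had 500 UMIs or more, 300 genes or more and a mitochondrial share under 5%. Scrublet, run per suffix with an expected rate of 0.05, removed 280 (1.80%). In suffixes 2, 5 and 7 it marked under 0.5%, so doublets may remain there. Counts were log-normalized, and 2000 variable genes plus markers, without any member, gave 30 principal components, 15 neighbours and 29 Leiden clusters at resolution 1 (scanpy 1.11.5, leidenalg 0.10.2, igraph 0.11.9, scipy 1.17.1, numpy 2.4.6). Clusters were named from marker lists by a rule built while looking at the clusters. Levels were summed UMIs per 1000000 UMIs with exact Poisson intervals, shares had exact Clopper-Pearson intervals, and ratios exact intervals for a pair of Poisson counts. The ratio and interval steps were tested on simulated data. Other resolutions, filters, scalings and left-out suffixes were tried as alternatives.

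The members, gene lists and comparisons were chosen with earlier results of these data known. All members were named, at most the 4 highest and 4 lowest genes of each other list, and for likeness the 2 genes with the highest r among genes with at least 500 UMIs. A few genes that this rule names are not reported here. Gene positions come from GENCODE M21 (GRCm38), which matched 24715 gene identifiers.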

Additional observations from a re-analysis of the deposited data

Results flagged for a closer look

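For each member and class with 4 to 10 suffix values, the gap of the highest or lowest suffix to the next was compared with the whole range. Of 86 such groups 9 (10.5%) had a suffix that stood apart, where chance flags about 1 in 20 groups of evenly measured values, a rate that need not hold for groups mostly at 0 such as those of Pde2a. Suffixes are not known to be samples.

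Pde10a stood apart 3 times. Suffix 6 had 2390 CPM in Sst/Pvalb interneurons, where the others had 1327 to 1481, and 1771 CPM in subicular or cortical nuclei, where the others had 1085 to 1142. Suffix 1 had 499.98 CPM in CA2/CA3 nuclei, where the others had 846 to 1023. Pde4b had 438 CPM in the Sst/Pvalb nuclei of suffix 5, where the others had 164 to 244. The 9 mature oligodendrocyte markers summed to 508 CPM in those nuclei of suffix 5 and to 48.5 to 172 CPM in the other suffixes, and their part in the Pde4b value was not tested. Pde4d had 2829 CPM in the Sst/Pvalb nuclei of suffix 3, where the others had 2186 to 2353.

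The remaining values rest on few UMIs. Pde1a had 110 CPM in microglia of suffix 2 on 12 UMIs, where the others had 8.07 to 23.1. Pde2a had 0.671 CPM in dentate granule nuclei of suffix 1 on 3 UMIs, 3.46 CPM in CA2/CA3 nuclei of suffix 6 on 4 UMIs and 8.30 CPM in mature oligodendrocytes of suffix 5 on 1 UMI.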

How the results depend on the processing

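The 36 ratios past 2-fold were recomputed under 20 settings, of which 18 kept the direction of every one that could be recomputed. The number still past 2-fold was 32 to 36 when 1 suffix was left out, 35 with doublets kept, 34 after thinning, 36 and 34 at resolutions 0.5 and 2, 33 for the median over suffixes, 34 without the 50 most abundant genes in the scaling, 29 as UMIs per nucleus and 31 with the unnamed clusters joined to the class with the nearest markers. The ratios that crossed 2-fold most were Pde3a in neurons and in granule over CA1 nuclei, Pde7b in CA2/CA3 over CA1, Pde8b in granule over CA2/CA3 and Pde1c in mature oligodendrocytes over precursors. Directions turned as UMIs per nucleus for Pde3a in neurons (log2 0.90), and with unnamed clusters joined for Pde3a (1.08) and Pde4b (1.56) in granule over CA1 and Pde4b in granule over CA2/CA3 (0.72). In that setting the Inpp5d-led cluster, led by microglial genes such as Siglech and Ikzf1, and the Fbxw15-led cluster, with raised oligodendrocyte markers, enter the granule class with 4558 and 2794 CPM of Pde4b. As UMIs per nucleus the median log2 ratio of all genes was itself 1.74 in neurons over non-neuronal nuclei, 0.68 in CA2/CA3 over CA1, -0.73 in granule over CA2/CA3, 0.33 in Sst/Pvalb over Vip/Cnr1 and -0.71 in mature oligodendrocytes over precursors. Leaving out Zic or neuropeptide-rich nuclei, or astrocytes not named so at resolution 2, was chosen after seeing the data.

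Counts of members changed as follows. In CA2/CA3 over CA1 the lower count was 0 after thinning, as UMIs per nucleus, for the median over suffixes and at resolution 2, and 2 with no UMI minimum, and the higher count was 2 as UMIs per nucleus. In granule over CA2/CA3 the higher count was 1 as UMIs per nucleus and 4 with unnamed clusters joined, a setting that gave 4 higher and 2 lower in granule over CA1. In excitatory over inhibitory neurons the higher count was 2 after thinning, at resolution 0.5 and without Zic nuclei, and the lower count 4 after thinning. The lower count in neurons was 2 as UMIs per nucleus. In Sst/Pvalb over Vip/Cnr1 nuclei the lower count was 1 as UMIs per nucleus and the higher count 1 with no UMI minimum.

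With 1 suffix left out, higher and lower counts were 4 to 4 and 3 to 4 in neurons, 1 to 1 and 2 to 2 in excitatory neurons, 1 to 1 and 4 to 5 in granule over CA1, 1 to 1 and 0 to 1 in CA2/CA3 over CA1 (0 lower without suffix 1, 3 or 6), 1 to 2 and 4 to 4 in granule over CA2/CA3 (1 higher without suffix 3), 0 to 0 and 3 to 3 in Sst/Pvalb nuclei, and 2 to 3 and 5 to 6 in mature oligodendrocytes. No paired analysis was possible because all samples form 1 group and no suffix is tied to a sample.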

Other observations

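The 3 clusters left unnamed held 731 nuclei and differed in phosphodiesterase levels from each other. The Inpp5d-led cluster, whose leading genes include the microglial Siglech, Ikzf1 and Selplg, and the Fbxw15-led cluster, in which oligodendrocyte markers were raised (Aspa, Prr5l and Fa2h among its leading genes), had 4 and 7 of the 8 dentate granule markers at a high level, and the part of these markers in the values was not tested. The Inpp5d-led cluster of 445 nuclei had 4558 CPM of Pde4b and 331 CPM of Pde8a, the Fbxw15-led cluster of 193 nuclei 2794 and 251 CPM, and the Ebf2-led cluster of 93 nuclei 499.7 and 6.30 CPM. Pde7b was 150 CPM in the Inpp5d-led, 267 CPM in the Fbxw15-led and 72.5 CPM in the Ebf2-led cluster, and Pde10a 448, 590 and 752 CPM in the same order. Pde8a was among the 10 leading genes of the Fbxw15-led cluster, Pde7b among those of the Glis3-led granule cluster and Pde3a among those of the Vip/Cnr1 cluster, although none of the members was used for clustering.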
